A study of Mus musculus with 6 samples.

Results

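The genes described here encode subunits of the phagocyte NADPH oxidase and the Rac GTPases that activate it, namely Cybb, Cyba, Ncf1, Ncf4, Rac1 and Rac2. They were taken by gene symbol from the array's annotation, with 1 probe per gene, the brightest by its mean over the 6 arrays. All 6 genes had a named probe (8 probes in all), of 19057 genes so named, and 5 of the 6 were among the 12382 genes bright enough to be tested. Cybb was not.

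The arrays measured RNA of lung antigen presenting cells, all from female mice of the C57BL/6 strain, in 3 groups of 2 arrays. The WT Air group held wild type mice in room air, and the WT smoke group wild type mice given cigarette smoke for 4 months. The Spp1-/- smoke group held Spp1-/- mice, which lack the secreted protein osteopontin, after the same 4 months of smoke. There was no group of Spp1-/- mice in room air, and no probe was named for Spp1, so the genotype label was not checked. Whether the 2 arrays of a group stand for separate mice is not in the labels. The p-values therefore cover the spread between arrays, part or all of which may be technical.

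The phagocyte NADPH oxidase moves electrons from NADPH across the membrane to oxygen and so makes superoxide in the phagosome or outside the cell. Its membrane core is a heterodimer of the catalytic subunit encoded by Cybb and the smaller subunit encoded by Cyba, which stabilises it. In a resting cell the organiser subunit (Ncf1) and a lipid-binding subunit (Ncf4) wait in the cytosol, and on stimulation they move to the membrane together with a GTP-bound Rac protein. Neutrophils, monocytes, macrophages, dendritic cells and B cells are known to carry the enzyme, and loss of a subunit causes chronic granulomatous disease in people.

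Upstream sequences of 3 of the genes are shown because Cyba and Ncf1 differed with smoke and because interferon regulatory factors are known to act on the human counterpart of Cybb, whose probes were too dim to read here. No upstream sequence was available for Ncf4, which also differed with smoke, or for Rac1 and Rac2. The sequences are those of RefSeq for GRCm38.p6, the 250 bases before the annotated start, written 5′ to 3′ on the gene's strand. They lie at chrX:9469325-9469574 for Cybb, chr8:122432941-122433190 for Cyba and chr5:134229626-134229875 for Ncf1, all on the minus strand. Capitals mark matches to GAAANNGAA, a core of the interferon response element, searched on both strands.
Cybb: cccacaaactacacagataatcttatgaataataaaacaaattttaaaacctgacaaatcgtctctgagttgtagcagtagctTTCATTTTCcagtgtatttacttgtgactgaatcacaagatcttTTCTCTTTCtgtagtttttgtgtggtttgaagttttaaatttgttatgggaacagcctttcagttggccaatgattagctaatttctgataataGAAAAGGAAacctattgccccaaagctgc
Cyba: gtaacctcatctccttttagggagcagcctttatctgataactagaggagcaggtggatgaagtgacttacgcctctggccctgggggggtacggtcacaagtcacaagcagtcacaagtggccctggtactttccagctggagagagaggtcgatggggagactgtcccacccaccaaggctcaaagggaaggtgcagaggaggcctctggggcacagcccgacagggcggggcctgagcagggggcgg
Ncf1: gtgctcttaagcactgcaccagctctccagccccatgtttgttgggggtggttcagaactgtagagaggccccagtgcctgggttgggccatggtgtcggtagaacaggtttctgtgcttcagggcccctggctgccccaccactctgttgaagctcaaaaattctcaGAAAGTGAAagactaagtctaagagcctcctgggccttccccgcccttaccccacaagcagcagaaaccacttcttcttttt
Cybb held 3 matches, at 167 to 159, 123 to 115 and 29 to 21 bases before the start, the first and second of them on the opposite strand. Ncf1 held 1, at 82 to 74 bases before the start, and Cyba held none. Of all 32851 windows of this length, 7.13% held at least 1 match and 0.0578% held 3 or more. A search for GAGGAA, a core motif of the factor PU.1, on both strands found no match in these 3 windows, against 23.3% of all windows. Only these exact letters were searched, so other forms of a PU.1 site may be present. These counts describe letters and say nothing of binding.

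Values are log2 intensities as deposited, with a lowest value of 6.619, a highest of 16.014 and a median of 7.264 across the probes. A gene was tested if its mean was above 7.274, the level that the brighter 50% of probes exceeded. The median SD of a tested gene was 0.149 in WT Air, 0.0909 in WT smoke and 0.0869 in Spp1-/- smoke (n = 2 each), so the air group was the most variable. Levels of different genes come from different probes and are not compared with each other.

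Cybb could not be followed on these arrays. Its brighter probe read 7.02 and 7.11 in WT Air, 7.14 and 7.16 in WT smoke, and 7.33 and 7.27 in Spp1-/- smoke. All 6 values lie near the median of all probes, and their mean was above 40.9% of probe means. The other Cybb probe, with a mean above 21.1% of them, read between 6.92 and 7.11 on every array. The means of both probes over the arrays lay below the brightness filter. Among the tested genes, Stx16, Cdkl2 and Afp had the profiles most like that of Cybb over the 6 arrays (Pearson r = 0.989 each, given as a description), matched to values that hardly rise above the floor of the array.

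Cyba, the partner that stabilises the catalytic subunit, was higher in smoke. Its values were 12.13 and 12.05 in WT Air, 13.05 and 13.36 in WT smoke, and 12.42 and 12.74 in Spp1-/- smoke. The groups did not overlap, with Spp1-/- smoke lying between WT Air and WT smoke. Ncf4, the lipid-binding subunit that supports the oxidase on phagosomes, read 10.85 and 10.77 in WT Air, 12.09 and 11.98 in WT smoke, and 11.76 and 11.69 in Spp1-/- smoke. It had the same order of groups, also without overlap, and arrays of a group differed by little.

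Ncf1, the organiser that bridges the cytosolic and membrane parts, read 10.42 and 10.07 in WT Air, 11.16 and 11.01 in WT smoke, and 11.13 and 11.09 in Spp1-/- smoke. Both smoke groups lay above both air arrays and overlapped each other. A dimmer Ncf1 probe, with group means of 7.06, 7.33 and 7.49 in the same order, moved the same way by a smaller amount, close to the median of all probes. Rac2, the Rac GTPase found mainly in blood cells, read 9.08 and 9.80 in WT Air, 10.26 and 10.23 in WT smoke, and 10.10 and 10.33 in Spp1-/- smoke. The smoke arrays lay together, and the air arrays stood 0.71 apart. Rac1, the Rac GTPase of most cell types, read 8.59 and 8.29 in WT Air, 8.41 and 8.42 in WT smoke, and 8.29 and 8.70 in Spp1-/- smoke. Its groups overlapped throughout.

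**Figure D1:**
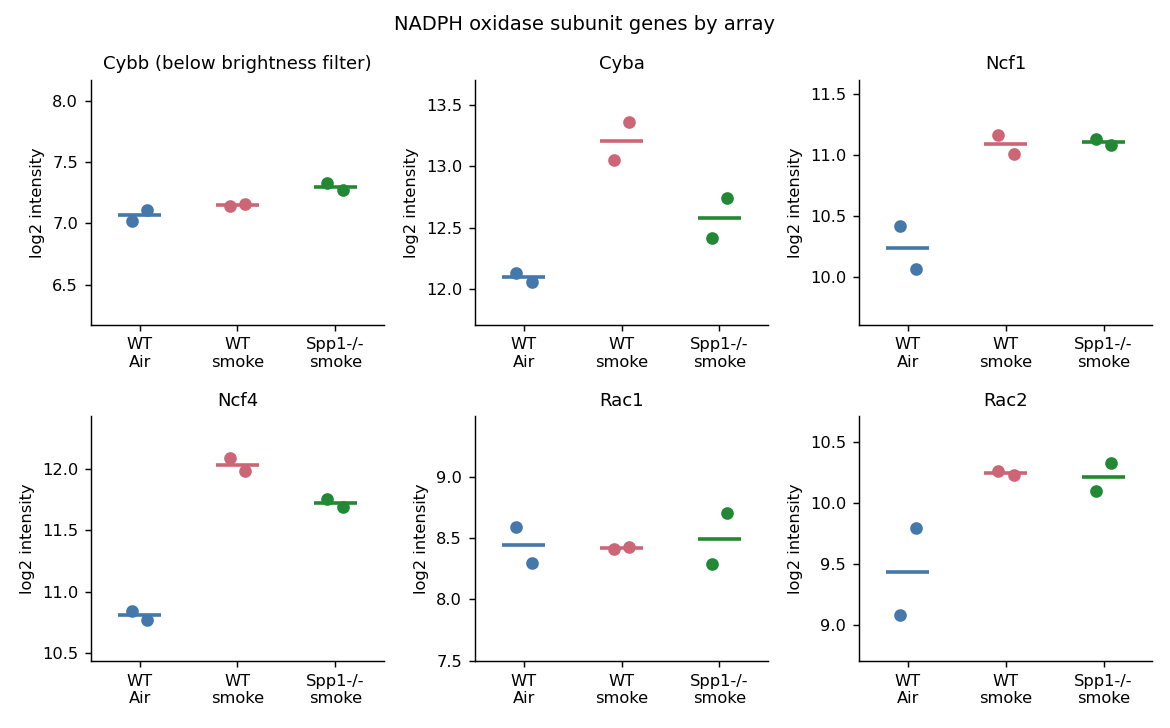
Log2 intensity of the brightest probe of each gene on each of the 6 arrays (points) with the group mean (line), for WT Air, WT smoke and Spp1-/- smoke; every panel spans 2 log2 units. Cyba and Ncf4 are highest in WT smoke with Spp1-/- smoke in between, Ncf1 and Rac2 are alike in both smoke groups, Rac1 is level, and Cybb stays between 7.02 and 7.33.

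The first question was how the genes differed between wild type mice in smoke and in room air. Of the 5 tested, Ncf4, Cyba and Ncf1 rose, 0 fell, and Rac2 and Rac1 did not pass. Over all 12382 tested genes, 21.4% were called at a limma adjusted p under 0.05, 11.1% higher and 10.3% lower, and the median log2 difference was 0.84 over the 5 genes and 0.045 over all genes. Ncf4 rose by 1.23 ± 0.10 on the log2 scale (SE, n = 2 arrays per group), or 2.34-fold, with limma adjusted p = 0.00263. Cyba rose by 1.11 ± 0.17, or 2.16-fold (limma adjusted p = 0.0115). Ncf1 rose by 0.84 ± 0.15, or 1.79-fold (limma adjusted p = 0.0185). By size of rise, Ncf4 ranked 341st, Cyba 459th and Ncf1 915th of the tested genes.

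Rac2 differed by 0.80 ± 0.25 and missed the threshold (limma adjusted p = 0.0795), although its groups did not overlap, as held upward for 34.8% of all tested genes. Its size moved with the air arrays. Without WT Air replicate 2 the difference was 1.16 (limma adjusted p = 0.00831), and without WT Air replicate 1 it was 0.45 (limma adjusted p = 0.0751). Rac1 differed by -0.03, with a 95% interval from -0.49 to 0.43 (limma adjusted p = 0.943), which leaves room for a change of up to about that size in either direction. Ncf4 passed without any 1 of the 6 arrays. Without WT smoke replicate 2 it was the only 1 of the 5 to pass, since Cyba (limma adjusted p = 0.0658) and Ncf1 (limma adjusted p = 0.0773) then missed the threshold. Ncf1 also missed it without WT smoke replicate 1 (difference 0.765) and in the fit of the 2 wild type groups alone (limma adjusted p = 0.0549). Leaving out either Spp1-/- smoke array gives that same fit.

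The second comparison asked how the genes differed between Spp1-/- and wild type mice when both had been given smoke. None of the 5 passed in limma. Cyba and Ncf4 had lower values in Spp1-/- smoke and the other 3 had differences near 0. Cyba differed by -0.63 ± 0.17, with a 95% interval from -1.05 to -0.21 (limma adjusted p = 1). Ncf4 differed by -0.31 ± 0.10, with an interval from -0.57 to -0.06 (limma adjusted p = 1). Groups without overlap in this direction were found for 19.5% of all tested genes. Ranked by p, Cyba stood 128th and Ncf4 258th.

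For the other 3 genes the intervals bound what these arrays could have shown. They ran from -0.36 to 0.40 for Ncf1 (difference 0.02), from -0.66 to 0.60 for Rac2 (difference -0.03) and from -0.38 to 0.54 for Rac1 (difference 0.08). Among all 12382 tested genes, limma called 0% (0 genes), and 540 had an unadjusted p under 0.05, 335 higher and 205 lower. Of 15 other settings of the limma fit, 9 also called 0 genes and 6 called 6 to 9, and in none of the 15 did 1 of the 5 oxidase genes pass.

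The third comparison set Spp1-/- smoke against WT Air, which differ in genotype and smoke together, and it shares its arrays with the others. Ncf4 was higher by 0.91 ± 0.10 (limma adjusted p = 0.0049) and Ncf1 by 0.86 ± 0.15 (limma adjusted p = 0.0167). Of all tested genes 22.6% were called, 12.2% higher and 10.5% lower. The groups did not overlap upward for 35.2% of tested genes, and for Cyba, Ncf1, Ncf4 and Rac2 here. Rac2 differed by 0.77 ± 0.25 (limma adjusted p = 0.085) and, without WT Air replicate 2, passed at 1.13 (limma adjusted p = 0.00898). Cyba differed by 0.49 ± 0.17 and did not pass (limma adjusted p = 0.0983), against 1.11 for WT smoke. Rac1 differed by 0.05. Without Spp1-/- smoke replicate 1 or 2, Ncf4 alone of the 5 passed, and Ncf1 had limma adjusted p = 0.1 and 0.102.

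**Figure D2:**
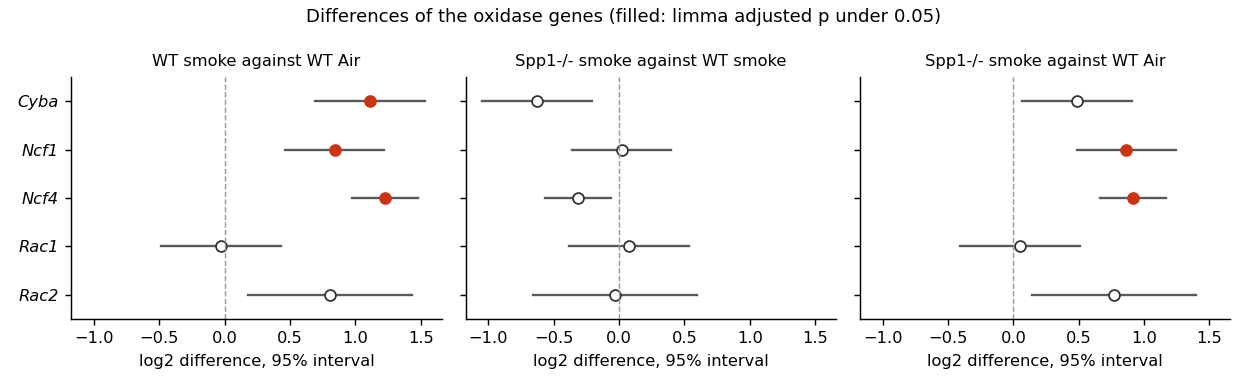
Log2 difference (point) with its 95% interval (line) for the 5 tested genes in the 3 comparisons, 2 arrays per group; filled points passed a limma adjusted p under 0.05. Filled are Cyba, Ncf1 and Ncf4 in the left panel, no gene in the middle panel, and Ncf1 and Ncf4 in the right panel.

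Genes of oxidase activation and regulation, in whichever direction they act on it, were examined as a list of 20. Of these, 17 had a named probe and 15 were tested. In WT smoke against WT Air, 5 rose and 0 fell, with a median log2 difference of 0.35. Over all tested genes, 11.1% rose and 10.3% fell. Prkcb, a protein kinase C isoform that phosphorylates the organiser subunit, read 8.52 and 8.20 in WT Air and 9.81 and 9.61 in WT smoke, a rise of 1.35 ± 0.19 (limma adjusted p = 0.00979). Hvcn1, the voltage-gated proton channel that offsets the charge moved by the oxidase, read 11.72 and 11.69 in air and 12.46 and 12.79 in smoke, a rise of 0.92 ± 0.16 (limma adjusted p = 0.0187). Vav3 and Prex1, exchange factors that load Rac proteins with GTP, rose by 1.03 and 0.62 (limma adjusted p = 0.0321 and 0.0266). Pik3cg, the catalytic subunit of PI3 kinase gamma, was the fifth, at 0.90 (limma adjusted p = 0.0495).

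Second probes of Hvcn1 and Pik3cg and the next brightest of Prkcb moved further the same way (1.52, 1.56 and 1.87). The dimmer probes of Vav3 and Prex1 and the third of Prkcb, with means between 7.01 and 7.22, moved by 0.02 to 0.09. The 5 calls were less firm than that of Ncf4. None passed without WT smoke replicate 1 or without replicate 2, and 2 passed without either Spp1-/- smoke array. With the replicate number as a block, 3 passed.

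Between the genotypes in smoke, 0 of the 15 passed, as did 0 of all 12382 tested genes. Nckap1l, a subunit of the Rac-regulated WAVE complex of blood cells, had the smallest p. It read 12.94 and 12.89 in WT smoke and 13.26 and 13.22 in Spp1-/- smoke, a difference of 0.33 ± 0.10 (limma adjusted p = 1). Hvcn1 differed by -0.31, with an interval from -0.73 to 0.10. In Spp1-/- smoke against WT Air, where 12.2% of all tested genes rose, 7 of the 15 rose, with a median of 0.48. The 7 were led by Nckap1l at 0.69 (limma adjusted p = 0.00947) and Prkcb at 1.29 (limma adjusted p = 0.0109). That count was 1 without Spp1-/- smoke replicate 1, 0 without replicate 2, 4 without WT Air replicate 2, 2 without either WT smoke array and 3 with the replicate block.

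Of the other NADPH oxidases and their partners, 3 of the 9 genes with a named probe were bright enough to test. Nox4, the oxidase of fibroblasts, endothelium and other tissue cells that releases hydrogen peroxide, read 10.11 and 9.82 in WT Air, 7.36 and 7.24 in WT smoke, and 7.40 and 8.06 in Spp1-/- smoke. It fell by 2.67 ± 0.24 on the log2 scale in WT smoke (limma adjusted p = 0.00324), to the median of all probes. It kept its call without any 1 of the 6 arrays, and of the 33 other pathway genes tested it had the largest difference in either direction. Noxo1 (0.25) and Duoxa2 (-0.02) did not pass. Between genotypes Nox4 differed by 0.43 (limma adjusted p = 1).

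Of 8 tested transcription factors known to act on oxidase subunit genes, 1 rose and 1 fell in WT smoke, with a median of -0.01. That is close to the share over all tested genes, 11.1% higher and 10.3% lower. Spi1, which encodes PU.1, read 7.47 and 7.31 in WT Air and 7.89 on both WT smoke arrays, a rise of 0.50 ± 0.10 (limma adjusted p = 0.0264) near the dim end of the scale. It missed the threshold without either WT smoke array, either Spp1-/- smoke array or WT Air replicate 2. Irf1, an interferon-induced factor, fell by 0.85 from 13.34 ± 0.06 (SD, n = 2) to 12.49 ± 0.20 (limma adjusted p = 0.0133), and its next probe moved by -0.84. It missed the threshold without WT smoke replicate 1 (limma adjusted p = 0.0741). Irf8 differed by -0.06.

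Of 7 tested genes that remove superoxide and peroxide, 1 rose and 1 fell in WT smoke, with a median of -0.01. This too is close to the 11.1% higher and 10.3% lower over all tested genes. Sod1, the cytosolic superoxide dismutase, read 13.29 and 13.33 in WT Air, 12.39 and 12.38 in WT smoke, and 12.41 and 12.37 in Spp1-/- smoke. It fell by 0.93 ± 0.09 (limma adjusted p = 0.00388), with the 4 smoke arrays within 0.04 of each other. Its dimmer probes, at 7.34 and 6.94, moved by 0.04 and -0.04. Sod2, the mitochondrial enzyme, rose by 0.72 ± 0.16 (limma adjusted p = 0.032). It missed the threshold without WT Air replicate 2 and without any 1 of the 4 smoke arrays. Neither Sod1 (0.00) nor Sod2 (-0.03) passed between the genotypes.

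**Figure D3:**
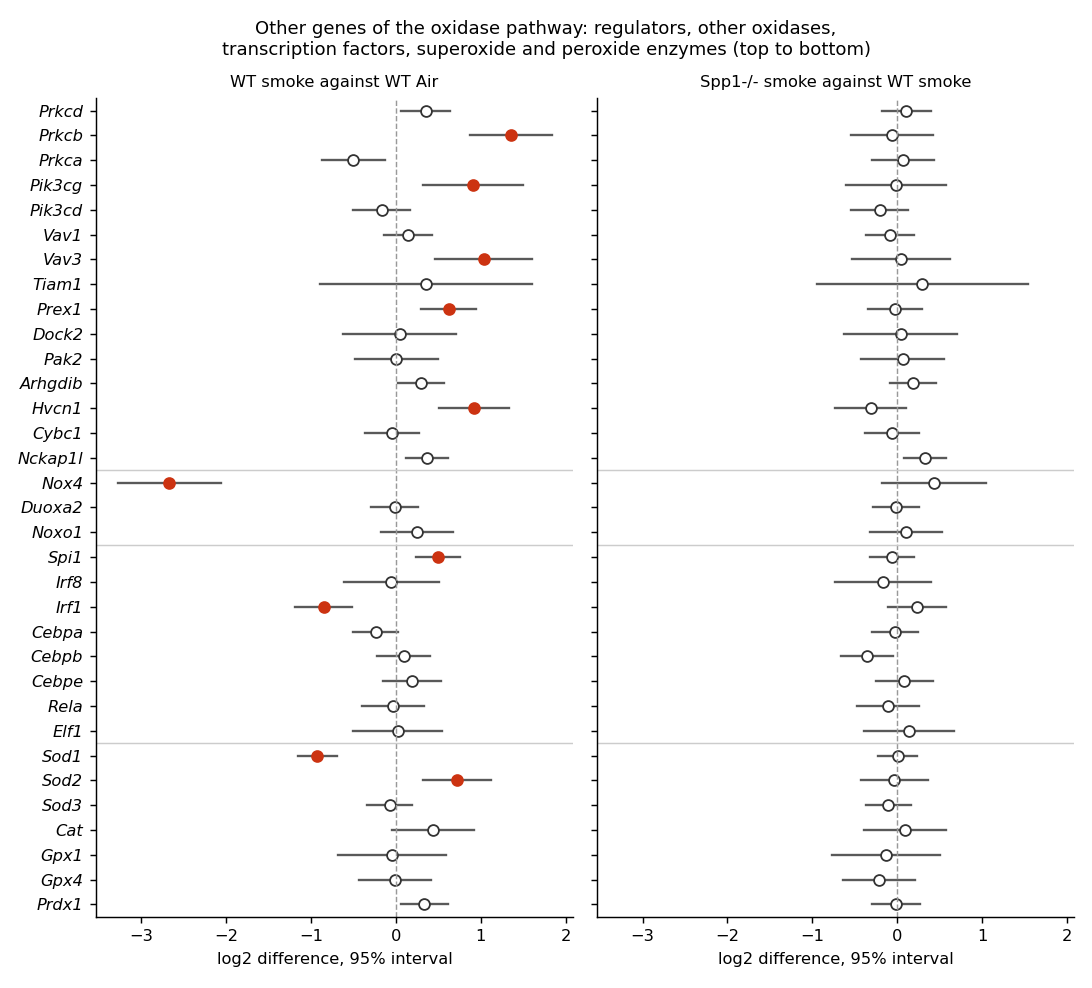
Log2 difference (point) with its 95% interval (line) for 33 other tested genes of the oxidase pathway in WT smoke against WT Air and in Spp1-/- smoke against WT smoke, 2 arrays per group; filled points passed a limma adjusted p under 0.05. On the left, 7 genes are filled to the right of 0 and Nox4, Irf1 and Sod1 to the left; on the right no point is filled.

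Markers of several cell types were read in these preparations, and many of them moved with smoke. In bulk samples, fewer cells of a type and less RNA per cell cannot be told apart. Beside the list counts that follow, 11.1% of all tested genes rose and 10.3% fell in WT smoke against WT Air. Of 8 leukocyte genes, 4 rose and 1 fell (median 0.53). Tyrobp, an adaptor of myeloid receptors, rose by 1.49 (limma adjusted p = 0.00175), and Coro1a was the 1 that fell, at -0.76 (limma adjusted p = 0.00799). The mean log2 level of the 8 genes ran from 11.54 to 11.66 in WT Air, 12.05 to 12.15 in WT smoke and 12.16 to 12.24 in Spp1-/- smoke. Of 8 alveolar macrophage genes, 3 rose and 1 fell (median 0.36), with means of 11.83 to 11.93, 12.16 to 12.21 and 12.16 to 12.33. The 1 that fell was Krt79, at -1.14 (limma adjusted p = 0.00611). Of 8 dendritic cell genes, 0 rose and 2 fell, Cd74 (-0.97) and H2-Ab1 (-0.85). Of the 8 differences, 4 were above 0 and 4 below (median -0.01). Clec9a differed by 0.60 and did not pass (limma adjusted p = 0.162), and Flt3 and Xcr1 lay near the median of all probes.

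Of 9 neutrophil genes, 1 rose and 2 fell in WT smoke. S100a8 rose by 1.72 while Mmp9 fell by 1.74 and Ltf by 2.42, and Cxcr2 and Ngp were too dim to test. The list's mean level ran from 9.11 to 9.24 in WT Air, 8.73 to 8.78 in WT smoke and 8.43 to 8.75 in Spp1-/- smoke. Of 6 monocyte genes, 1 rose and 4 fell (means 10.28 to 10.38, then 9.34, then 9.55 to 9.69). The largest falls were those of Ly6c1 (-2.62) and Ace (-1.72). Fcgr4 was the 1 that rose, by 0.48, and Ccr2, near the median of all probes, differed by -0.12. Of 4 B cell genes, 3 fell (means 11.13 to 11.20, then 9.50 to 9.59, then 9.19 to 9.48). In T cells 3 of 5 genes fell (median -0.56). Of the cell types with marker lists here, neutrophils, monocytes, macrophages, dendritic cells and B cells are known to carry the oxidase.

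Lung tissue genes were bright in WT Air and lower in smoke. Of 10 epithelial genes 8 fell (median -1.62), of 8 endothelial genes 7 fell (median -2.65), and all 9 tested fibroblast and smooth muscle genes fell (median -1.95). Mean levels in the same order of lists were 11.52 to 11.79, 11.0 to 11.17 and 11.03 to 11.21 in WT Air, and 9.67 to 10.06, 8.47 to 8.73 and 9.16 to 9.27 in WT smoke. In Spp1-/- smoke they were 9.67 to 9.90, 8.36 to 8.60 and 9.12 to 9.42. No gene of any of these marker lists passed between the genotypes in smoke, where 0 of all 12382 tested genes did. That count therefore does not show that the cell makeup was alike. All 6 monocyte differences were above 0 there (median 0.25), and all 4 B cell differences were below 0 (median -0.19). The part of cell makeup in the rise of Cyba, Ncf1 and Ncf4 and in the fall of Nox4 was not tested.

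**Figure D4:**
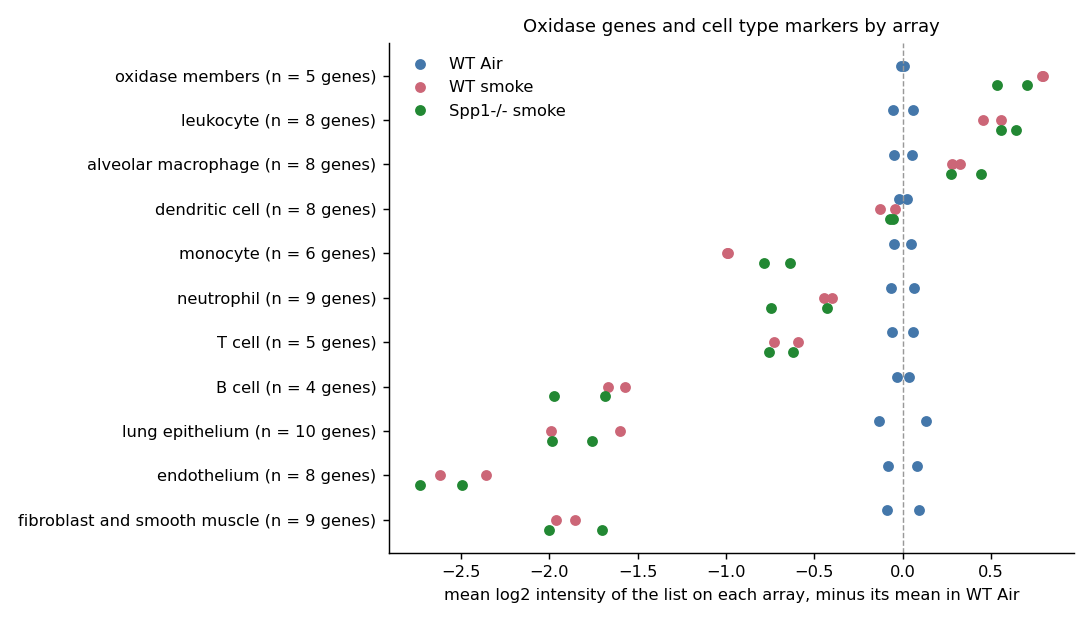
Mean log2 intensity of each list on each array, minus the list's mean in WT Air (horizontal axis, log2 units), for the 5 tested oxidase genes and 10 marker lists; each point is 1 array, coloured by group. Oxidase, leukocyte and alveolar macrophage genes lie to the right of the air arrays in both smoke groups, and epithelial, endothelial and fibroblast genes far to the left.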

How the data were processed

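Per the labels' protocols, the cells' RNA came from a Trizol extraction and was turned into biotin-labelled cRNA for Illumina arrays; the isolation of the cells is not described. The deposited log2 intensities of 45281 probes were used. Their sorted columns differed by at most 0.00562, as after quantile normalization, and limma is the tool named in the submitters' processing notes. No source states a background correction. A further table with 12 columns was not used because its column names match no label. Symbols came from the platform annotation (34885 probes with 1 symbol, 18 with several, 10378 unnamed here), with 34807 updated by Entrez identifier through RefSeq of GRCm38.p6.

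Genes were fitted with limma 3.58.1 in R 4.3.3 (1 coefficient per group, all 6 arrays, eBayes, 3 residual and 2.24 prior degrees of freedom), with Benjamini-Hochberg adjustment over all 12382 kept genes and calls under 0.05. Permuting 2 against 2 arrays could not reach that threshold. The number of arrays limits the precision. The fit was tested on simulated data. Named were all members and the 3 genes most like Cybb. From each pathway list up to 4 genes with the smallest p were named, and from each marker list up to 3. Where that rule did not reach them, Pik3cg, Noxo1, Duoxa2, Irf8, Flt3, Xcr1, Cxcr2, Ngp, Ccr2 and Fcgr4 were named after their values were seen. Members and lists were chosen with earlier results of these data known. Alternatives are given at the end.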

Additional observations from a re-analysis of the deposited data

How the results depend on the processing

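Over 15 alternatives, the 15 differences of the tested members kept direction and side of the threshold in 207 of 225 values. All 7 changes of sign came from leaving out 1 array and none involved a call. With arrays left out, Rac1 ran from -0.175 to 0.122 in WT smoke against WT Air, from -0.13 to 0.285 between genotypes and from -0.157 to 0.259 in Spp1-/- smoke against WT Air. Between genotypes Ncf1 ran from -0.056 to 0.098 and Rac2 from -0.149 to 0.085. Likewise, the oxidase genes called numbered 1 to 4 in WT smoke against WT Air, 0 between genotypes and 1 to 3 in Spp1-/- smoke against WT Air. Genes called over the array numbered 743 to 3858 (2645 with all arrays), 0 to 6 (0) and 673 to 4035 (2804). With only the groups compared they numbered 1489, 6 and 1842, and Ncf1 missed the threshold in WT smoke against WT Air (limma adjusted p = 0.0549). Between genotypes, 8 genes passed among the brighter 25% of probes, 7 with an intensity trend and robust prior, and 9 with array weights. Rac2 passed in WT smoke against WT Air among the brighter 25% of probes (limma adjusted p = 0.0477). A group reduced to 1 array borrowed its spread from the other groups. Where the comparison did not use that group, the fit was the same as with only the groups compared. The counts of values given here include such repeats. The replicate block changed no call of a member (3, 0 and 2 called). Arrays with the same number share only a number: their deviations correlated at 0.137, -0.0825 and -0.0294. The causes of these shifts were not tested. Signal over background limited Cybb, which entered only without the filter (limma adjusted p = 0.531, 1 and 0.0962). Of 268 values for 18 called differences of other pathway genes, an analysis added after the data were seen, 69 missed the threshold and 0 changed sign. Of 15 regulators, 4 rose in Spp1-/- smoke against WT Air with the floor of the array subtracted, against 7.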
